A study of Mus musculus with 24 samples.

Results

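Male mouse epiblast stem cells (EpiSCm, source labelled EpiSC GOF18 male) were compared with male embryonic stem cells (ESCm, source labelled ESC male). The members are the arrays carrying these 2 titles, 2 of each, which is 4 of the 24 arrays of the series. All arrays are Illumina MouseRef-8 v2 BeadChips, each hybridised with labelled RNA from 1 sample, and the submitters describe duplicates as biological replicates without saying whether they came from separate cultures. The adjusted p-values below measure the spread between arrays, which may be technical. GOF18 is the name of a mouse line with a green fluorescent reporter under regulatory sequence of Pou5f1. The labels give neither the strain, passage, medium nor clonal origin of ESCm and EpiSCm, and name no added Sox2 in either. They were set beside the female pair, EpiSCf (labelled OG2, another Pou5f1 reporter line) against ESCf (also OG2), and beside the 6 other arrays of GOF18 EpiSCs, which overexpress Sox2 and were kept in EpiSC medium (EpiSox2mL2) or ESC medium (EpiSox2mE1 and EpiSox2mE2).

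Embryonic stem cells are derived from the preimplantation embryo and stand for a naive state of pluripotency that is upheld by LIF acting through STAT3 and by a circuit of Klf, Esrrb, Tbx3 and Nanog. Epiblast stem cells are derived from the postimplantation epiblast and stand for a primed state, which depends on FGF and on Activin or Nodal signalling. Both states use Pou5f1 and Sox2. On leaving the naive state, cells silence a set of germ-line and early-embryo genes by DNA methylation and switch on genes of the egg-cylinder epiblast such as Fgf5 and Otx2.

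EpiSCm differed from ESCm over most of the measured transcriptome. Levels are log2 values after background removal and quantile normalisation, for 8932 genes with a probe detected on both arrays of at least 1 of the 12 groups. A gene was called at a Benjamini-Hochberg adjusted p under 0.05 in limma's moderated test. The test called 70% of the genes, with 41.3% (3688) higher and 28.7% (2563) lower in EpiSCm. The median of all genes lay at log2 0.18 on this scale and at -0.17 when arrays were scaled to a common median, which gave 2195 higher and 3479 lower. Below, "rose" and "fell" are used only of genes called the same way on quantile-normalised, median-scaled and authors' deposited log2 values, referred to as the 3 scalings. By that rule 24.2% (2158) rose and 27.5% (2459) fell, and these are the shares against which each gene list is to be read. Of these 4617 genes, 60 were well above background on no array of either group. The groups' arrays did not overlap for 82.8% (7394) of genes.

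The 8 arrays made from GOF18 cells were dimmer than the 16 others, with a median intensity of 90.2 to 101 against 119 to 152. They did not detect fewer probes (40.4% to 44.4% against 38.3% to 41.8%). For 9.01% of genes (805) every GOF18 array lay below every other array, and for 6.78% (606) every one lay above; under median scaling these shares were 14.9% (1335) and 0.862% (77). Such genes are called array-separated below. Of the 2459 genes that fell, 782 (31.8%) were separated in that direction, and of the 2158 that rose, 403 (18.7%). EpiSCm lies in 1 of these array sets and ESCm in the other. For every gene of this pair, the cell state, the GOF18 line and the array set therefore cannot be told apart. A gene that is not separated only overlaps between the sets on some array, which does not lift this limit. A gene that differs as much in EpiSCf, which lies in the other set, can hardly be separated.

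Different probes of 1 gene often disagreed in this pair. Among 2395 genes with several kept probes, 340 (14.2%) had probes called in opposite directions, against 69 (2.88%) of the same genes between EpiSCf and ESCf. The probes of a gene spread over a median of 0.84 log2 units, against 0.44 in the female pair. Ube2n, a ubiquitin-conjugating enzyme, had 1 probe at 6.86 and 7.10 in ESCm and at 9.42 and 9.24 in EpiSCm, and another at 7.70 and 8.12 against 4.72 and 4.43. Ndufa5, a subunit of respiratory complex I, was at 10.85 and 10.91 in ESCm and 11.35 and 11.39 in EpiSCm on its brighter probe. Its dimmer probe dropped from 9.0 and 9.13 to 5.33 and 4.66. Adi1, an enzyme of methionine salvage, differed by log2 2.05 on one probe and by -2.58 on the other. The same direction therefore does not hold for every probe of these genes, and each value below belongs to the brightest kept probe. The probe sequences were not used here, and what sets the probes apart was not tested.

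**Figure D1:**
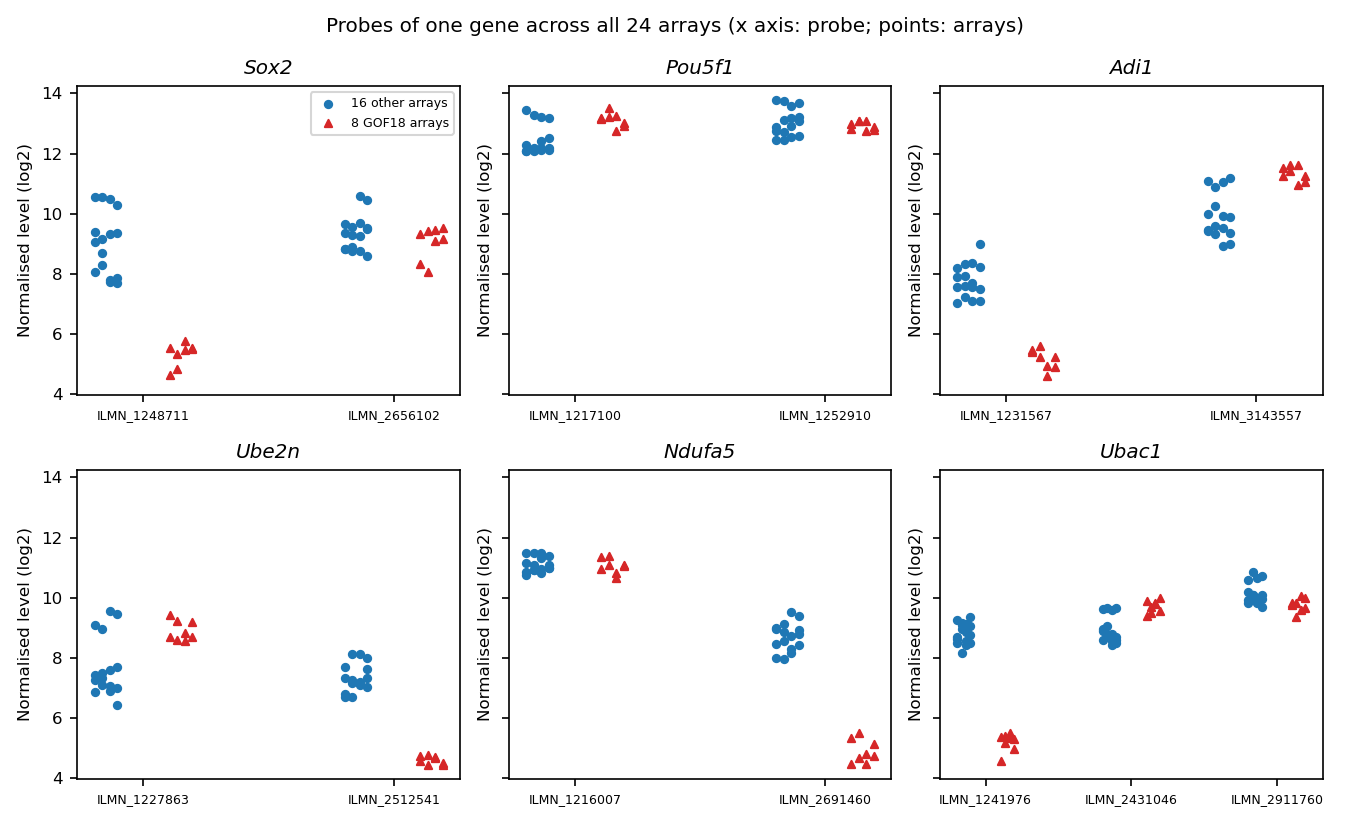
Normalised log2 level of each kept probe of 6 genes, with 1 panel per gene and 1 column per probe. Circles are the 16 arrays without GOF18 cells and triangles the 8 GOF18 arrays. One probe of Sox2, Adi1, Ube2n, Ndufa5 and Ubac1 lies lower on all 8 GOF18 arrays than on all others, while the remaining probes of these genes do not.

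The naive circuit was lower in EpiSCm throughout. All 17 tested members of the naive list fell, with a median log2 difference of -4.84 against 0.18 for all genes, and none was array-separated. In the female pair 16 of them were called lower (median log2 -5.66). With EpiSCf in the other array set, separation of such genes was hardly possible. The list names 24 genes, of which 20 were on the array; Prdm14 had no probe that passed the detection filter and Tfcp2l1 was not on it. Klf4, a Krüppel-like factor downstream of STAT3, stood at 10.63 and 10.62 in ESCm and 4.94 and 5.47 in EpiSCm. It was 42.9-fold lower in EpiSCm (log2 -5.42, SE 0.19, adjusted p = 5.6e-14, detected on 1 of 2 EpiSCm arrays). Its other kept probes differed less, by log2 -4.14 and -3.13, and were undetected in EpiSCm. Its relative Klf2 stood at 12.11 and 11.98 in ESCm and 7.34 and 7.07 in EpiSCm (log2 -4.84, SE 0.15, adjusted p = 8.7e-15). Klf5, the third Krüppel-like factor of the circuit, was at 11.72 and 11.71 in ESCm and 9.20 and 9.39 in EpiSCm, a smaller difference (log2 -2.42, SE 0.12, adjusted p = 6.5e-12) that left it well detected. Its fall was therefore the least of the 3 Klf genes measured.

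Esrrb, an orphan nuclear receptor that activates self-renewal genes, stood at 12.47 and 12.66 in ESCm and 7.49 and 7.79 in EpiSCm (log2 -4.92, SE 0.16, adjusted p = 1.2e-14). Tbx3, a T-box repressor, went from detected to undetected, at 9.86 and 9.77 in ESCm and 4.58 and 4.50 in EpiSCm, which makes it at least 23.0-fold lower. Zfp42, the zinc-finger gene known as Rex1, was at 9.86 and 9.70 in ESCm and 6.22 and 6.08 in EpiSCm (log2 -3.63, SE 0.18, adjusted p = 6.0e-12). Jam2, a junctional adhesion molecule used as a naive marker, was at least 33.3-fold lower (log2 -5.77, undetected in EpiSCm). Nr0b1, an orphan receptor that binds Pou5f1, was near background, at 5.41 and 5.79 in ESCm and 4.49 and 5.15 in EpiSCm (log2 -0.78, SE 0.26, adjusted p = 0.014, undetected in EpiSCm and so at least 1.24-fold lower). That call was lost without the second ESCm array (adjusted p = 0.12), without the first EpiSCm array (adjusted p = 0.21) and under median scaling on the probes detected on every array (-0.45, adjusted p = 0.17). In every one of these genes both ESCm arrays lay above both EpiSCm arrays. The groups' arrays also failed to overlap for 82.8% of all genes, so this is not particular to them.

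Of the core factors, which both states use, Pou5f1 was not called and several partners were lower. Pou5f1, the POU-domain factor Oct4, was read on its probe with the higher mean over all arrays. It stood at 12.88 and 13.11 in ESCm and 12.82 and 13.08 in EpiSCm (log2 -0.04, SE 0.13, adjusted p = 0.78), and the arrays of the groups overlapped. The 95% interval of that difference ran from -0.32 to 0.23 log2 units; under median scaling it was -0.51 and was called (adjusted p = 0.0062). Its second probe read 12.08 and 12.16 in ESCm and 13.14 and 13.23 in EpiSCm, a difference of 1.07. Sox2, its HMG-box partner, fell on the probe with the higher mean over all arrays, from 9.66 and 9.55 to 8.31 and 8.07 (log2 -1.42, SE 0.13, adjusted p = 1.7e-08). A second Sox2 probe, in contrast, was at 10.55 on both ESCm arrays and at 4.64 and 4.83 in EpiSCm, where neither array detected it. That probe is array-separated, so no fold is drawn from it. It reached at most 5.77 on any of the 8 GOF18 arrays, including those labelled as overexpressing Sox2. In F9 cells the same probe read 9.38 and 9.16 without and 9.31 and 9.37 with added Sox2. In P19 cells it read 8.06 and 8.3 without and 7.74 and 7.85 with it. Its reading on the overexpressing GOF18 arrays therefore cannot show whether the probe works there.

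Nanog stood at 12.64 and 12.58 in ESCm and 9.80 and 9.45 in EpiSCm (log2 -2.99, SE 0.14, adjusted p = 2.8e-12) and remained well detected. Sall4, a zinc-finger partner of Pou5f1, was lower by a smaller amount, at 12.70 and 12.64 in ESCm and 11.53 and 11.84 in EpiSCm (log2 -0.98, SE 0.15, adjusted p = 1.1e-05). Averaged over its probes that difference was -0.23 and was not called (adjusted p = 0.13). Utf1, a chromatin factor controlled by Pou5f1 and Sox2, was not called, at 11.03 and 10.88 in ESCm and 11.15 and 11.13 in EpiSCm (log2 0.19, SE 0.16, adjusted p = 0.29). Dppa4, a developmental pluripotency-associated nuclear protein, was at 12.72 and 12.71 in ESCm and 7.81 and 7.80 in EpiSCm (log2 -4.91, SE 0.12, adjusted p = 2.7e-16). Of 16 tested core genes, 11 fell and none rose (median log2 -1.13).

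Lin28a and Tdgf1 were the 2 core genes whose fall was array-separated. Lin28a, which blocks let-7 maturation, was at 11.31 and 11.24 in ESCm and 7.46 and 8.02 in EpiSCm (log2 -3.53, SE 0.17, adjusted p = 2.4e-12). It read 6.86 to 7.85 on the 6 GOF18 arrays with added Sox2 and 9.55 to 11.69 on the 16 arrays of every other line, EpiSCf included. The female pair differed by 0.34, and the male effect minus the female effect was -3.87 (SE 0.24, adjusted p = 5.8e-10). Tdgf1 (Cripto), the co-receptor for Nodal, was at 10.13 and 10.31 in ESCm and 7.15 and 7.24 in EpiSCm (log2 -3.03, SE 0.20, adjusted p = 2.5e-10). The female pair differed by -0.06, and the difference of effects was -2.97 (SE 0.29, adjusted p = 1.3e-07).

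**Figure D2:**
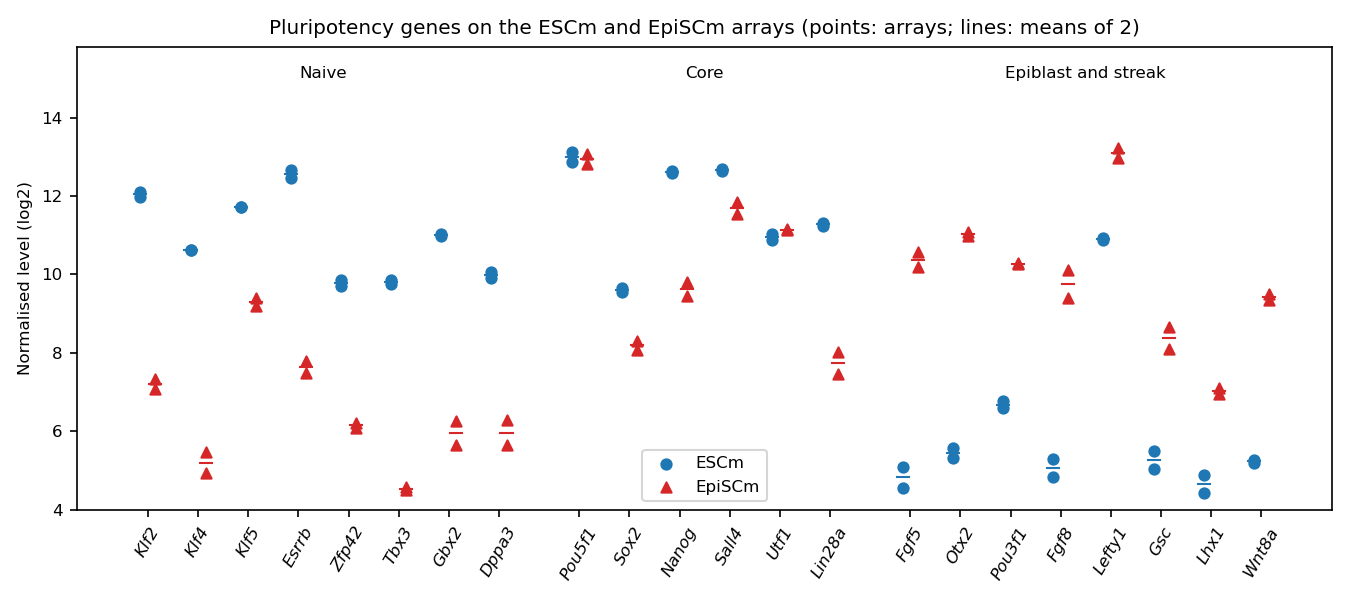
Normalised log2 level of naive, core and epiblast or streak genes. Each circle is 1 ESCm array, each triangle 1 EpiSCm array, and the short lines are means of 2. The naive genes lie lower in EpiSCm on both arrays, the groups overlap for Pou5f1, and Fgf5, Otx2, Fgf8 and Wnt8a lie higher.

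A promoter of Zfp42 is shown because it is the only one among 12 windows, found for 10 of the 17 naive genes that fell, to carry an octamer, the site that Pou5f1 binds. The window runs from 250 bases before to 50 after the annotated start in RefSeq on GRCm38.p6, at chr8:43306960-43307259 on the minus strand, printed along the gene's strand with the octamer in capitals.
Zfp42: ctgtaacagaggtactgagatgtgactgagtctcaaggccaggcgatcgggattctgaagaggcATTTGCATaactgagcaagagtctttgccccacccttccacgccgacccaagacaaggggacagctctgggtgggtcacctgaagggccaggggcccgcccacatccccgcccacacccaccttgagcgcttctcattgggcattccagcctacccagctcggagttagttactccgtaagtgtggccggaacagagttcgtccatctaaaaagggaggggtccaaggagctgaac
The letters ATGCAAAT, searched on both strands, occurred in 1 of 12 promoter windows of naive genes that fell and in 1.74% of all 32851 windows. Pim2, a kinase gene of the primed list, held the single octamer among 20 windows of primed genes that rose. A match describes letters only, and no binding was measured.

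Genes of the postimplantation epiblast were higher in EpiSCm. Of 23 tested members of the primed list, 19 rose and 3 fell (median log2 2.07). Fgf5, a growth factor that marks the early postimplantation epiblast, stood at 5.10 and 4.55 in ESCm and 10.18 and 10.57 in EpiSCm and was at least 31.2-fold higher (log2 5.55, SE 0.19, adjusted p = 3.5e-14, undetected in ESCm). Otx2, a homeobox factor of the anterior epiblast, was at 5.33 and 5.58 in ESCm and 11.07 and 10.97 in EpiSCm and 47.5-fold higher (log2 5.57, SE 0.18, adjusted p = 1.1e-14, detected on 1 of 2 ESCm arrays). Pou3f1 (Oct6), a POU factor that pairs with Otx2 in the primed state, was at 6.59 and 6.77 in ESCm and 10.27 and 10.28 in EpiSCm (log2 3.60, SE 0.15, adjusted p = 6.8e-13). Chst1, a keratan sulfate sulfotransferase, was at least 41.0-fold higher, at 4.69 and 5.08 in ESCm and 10.52 and 11.02 in EpiSCm (log2 5.89, SE 0.18, adjusted p = 7.5e-15, undetected in ESCm).

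Car14, a membrane carbonic anhydrase, was at 5.64 and 5.68 in ESCm and 10.86 and 10.66 in EpiSCm (log2 5.10, SE 0.17, adjusted p = 3.2e-14). Zfp608, a zinc-finger gene, was at 4.51 and 4.87 in ESCm and 9.04 and 8.97 in EpiSCm (log2 4.32, SE 0.16, adjusted p = 1.3e-13, undetected in ESCm and so at least 12.1-fold higher). None of the 19 rises was array-separated. The 3 primed genes that fell were Tdgf1, the secreted Wnt antagonist Sfrp2 (log2 -2.20, detected on 1 of 2 EpiSCm arrays) and the Nodal inhibitor Lefty2 (log2 -1.22); those of Tdgf1 and Sfrp2 were array-separated.

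Genes of the primitive streak and its derivatives moved both ways. Of 17 tested, 8 rose and 6 fell (median log2 0.24). Gsc, the organizer homeobox gene, stood at 5.5 and 5.04 in ESCm and 8.11 and 8.67 in EpiSCm (log2 3.12, SE 0.19, adjusted p = 7.6e-11, detected on 1 of 2 ESCm arrays). Lhx1, a LIM homeobox gene of the organizer and anterior mesendoderm, was at 4.42 and 4.89 in ESCm and 6.94 and 7.11 in EpiSCm and at least 3.07-fold higher (log2 2.37, undetected in ESCm). Wnt8a, a streak Wnt ligand, was at 5.19 and 5.27 in ESCm and 9.51 and 9.35 in EpiSCm (log2 4.20, SE 0.16, adjusted p = 1.2e-13, undetected in ESCm and so at least 16.2-fold higher), and every GOF18 array lay above every other.

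Mixl1, a homeobox gene of the streak, was at 4.56 and 4.53 in ESCm and 5.39 and 5.77 in EpiSCm (log2 1.04, undetected in ESCm and so at least 1.12-fold higher). The endoderm factors Sox17 (log2 1.01, undetected in ESCm and so at least 1.14-fold higher) and Foxa2 (log2 0.77, undetected in ESCm, detected on 1 of 2 EpiSCm arrays) rose by smaller amounts. In the female pair these 5 endoderm, organizer and streak genes differed by 0.22 for Gsc, 0.00 for Lhx1, -0.13 for Mixl1, -0.24 for Sox17 and -0.10 for Foxa2. Eomes, a T-box factor of the streak, fell slightly (log2 -0.66), a call lost without the second ESCm array (adjusted p = 0.056) or the first EpiSCm array (adjusted p = 0.066). Cdx1, a caudal homeobox gene, fell from 8.70 and 8.64 to 4.48 and 4.49 (log2 -4.19, undetected in EpiSCm and so at least 10.4-fold lower), and the streak marker T was not on the array. Gata6, the endoderm GATA factor, was not called (log2 0.24).

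Ligands of the FGF family moved in both directions. Fgf4, the growth factor through which ES cells activate ERK, was at 8.66 and 8.49 in ESCm and 6.56 and 6.29 in EpiSCm (log2 -2.15, SE 0.25, adjusted p = 4.0e-07). Fgf8, made by the epiblast and streak, was at 5.29 and 4.83 in ESCm and 10.12 and 9.40 in EpiSCm and at least 20.4-fold higher (log2 4.70, undetected in ESCm). Fgf15 rose (log2 1.67), and Fgf17, a relative of Fgf8, fell (log2 -3.54). Of 10 tested ligands and receptors, 6 rose and 3 fell.

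Targets and feedback genes of ERK held more falls than rises under the 3 scalings. Of 19 tested, 1 rose and 8 fell, while 6 were called higher and 8 lower on quantile-normalised values alone (median log2 -0.13). The immediate-early genes Fos (log2 -2.38) and Egr1 (log2 -1.38) fell, as did Dusp6, the ERK phosphatase (log2 -0.68). Egr1 stood at 11.31 and 11.30 in ESCm and 9.62 and 10.22 in EpiSCm. In the female pair Egr1 and Dusp6 differed the other way, by 1.87 and 1.67. The difference of the male from the female effect was -3.26 (SE 0.38, adjusted p = 1.2e-06) for Egr1 and -2.35 (SE 0.18, adjusted p = 1.0e-08) for Dusp6. Etv1, an ETS factor, was the 1 gene of the list that rose under all 3 (log2 1.42).

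Most of the LIF pathway was lower. Of 15 tested members, 2 rose and 11 fell (median log2 -1.74), and none of the falls was array-separated. The ligand's receptor Lifr was not called (log2 0.49, SE 0.24, adjusted p = 0.081, detected on 1 of 2 ESCm arrays), but was without the first ESCm array (adjusted p = 0.032) or the second EpiSCm array (adjusted p = 0.039). The kinase Jak1 (log2 -2.0, detected on 1 of 2 EpiSCm arrays) and Stat3 itself were lower, Stat3 at 10.15 and 10.12 in ESCm and 7.92 and 8.58 in EpiSCm (log2 -1.89, SE 0.18, adjusted p = 3.4e-08). Among STAT3 targets, the feedback inhibitor Socs3 was at 10.66 and 10.52 in ESCm and 8.54 and 9.16 in EpiSCm (log2 -1.74), and the kinases Pim1 (log2 -2.93, undetected in EpiSCm and so at least 4.27-fold lower) and Pim3 (log2 -2.16) also fell. Pim2 went the other way, at 5.16 and 5.24 in ESCm and 9.07 and 8.92 in EpiSCm and at least 12.0-fold higher.

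In the Nodal and Activin pathway, ligand, co-factor and inhibitor genes moved apart. Nodal, the ligand, was at 8.92 and 8.60 in ESCm and 10.08 and 9.90 in EpiSCm (log2 1.23, SE 0.20, adjusted p = 3.3e-05). Foxh1, the forkhead partner of Smad proteins, was at 6.54 and 6.56 in ESCm and 8.57 and 8.62 in EpiSCm (log2 2.05). Lefty1, a Nodal target and inhibitor, was at 10.87 and 10.92 in ESCm and 13.22 and 12.97 in EpiSCm (log2 2.21, SE 0.15, adjusted p = 3.2e-10), while its neighbour and relative Lefty2 was at 10.76 and 10.73 in ESCm and 9.43 and 9.62 in EpiSCm (log2 -1.22, SE 0.14, adjusted p = 2.3e-07). Fst, the Activin-binding protein follistatin, rose (log2 2.84, undetected in ESCm and so at least 5.49-fold higher), and the Activin subunit genes Inhba (log2 -2.02, undetected in EpiSCm and so at least 2.59-fold lower) and Inhbb (log2 -3.40, undetected in EpiSCm and so at least 7.08-fold lower) fell. Of 16 tested, 7 rose and 6 fell.

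Bmp4 and several BMP targets were lower, and a BMP antagonist was higher. Bmp4 was at 8.67 and 8.77 in ESCm and 5.80 and 5.22 in EpiSCm (log2 -3.21, SE 0.24, adjusted p = 1.4e-09, detected on 1 of 2 EpiSCm arrays). The Id genes, targets of BMP that inhibit helix-loop-helix factors, fell together: Id1 was at 8.48 and 8.36 in ESCm and 6.13 and 6.21 in EpiSCm (log2 -2.25, SE 0.17, adjusted p = 1.4e-09). Id2 (log2 -2.96), Id3 (log2 -1.46, detected on 1 of 2 EpiSCm arrays) and Id4 (log2 -1.57, undetected in EpiSCm and so at least 1.65-fold lower) were also lower, and the fall of Id2 was array-separated. Chrd, the BMP antagonist chordin, was at 4.82 and 4.88 in ESCm and 6.78 and 7.82 in EpiSCm (log2 2.45, undetected in ESCm and so at least 3.71-fold higher). The list held 2 rises and 11 falls among 17 tested (median log2 -0.85), with 4 falls array-separated. Between EpiSCf and ESCf Id1 and Id3 differed by 0.69 and 1.01, and the male effect minus the female effect was -2.94 (SE 0.24, adjusted p = 2.2e-08) for Id1 and -2.47 (SE 0.33, adjusted p = 6.7e-06) for Id3.

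The Wnt list moved both ways, with 5 rises and 9 falls among 25 tested (median log2 -0.09). Fzd2, a Wnt receptor, rose (log2 3.39, undetected in ESCm and so at least 8.16-fold higher). Porcn, which acylates Wnt ligands for secretion, fell (log2 -2.53), as did Notum, which removes that acyl group (log2 -2.40, undetected in EpiSCm and so at least 3.2-fold lower). Axin2, a general target of β-catenin, was not called (log2 0.22), but was without the second EpiSCm array (log2 0.64, adjusted p = 0.034).

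DNA methylation genes moved both ways, with 5 rises and 5 falls among 14 tested. Dnmt3l, the catalytically inactive partner of the de novo methyltransferases, was at 13.48 and 13.36 in ESCm and 6.91 and 7.01 in EpiSCm, which was 88.1-fold lower (log2 -6.46, SE 0.13, adjusted p = 4.0e-17). Its second probe gave -6.09. Dnmt3b, a de novo methyltransferase, was higher, at 13.50 and 13.45 in ESCm and 14.58 and 14.53 in EpiSCm (log2 1.08, SE 0.11, adjusted p = 1.1e-07). The maintenance pair was lower: Dnmt1 was at 10.39 and 10.56 in ESCm and 9.22 and 9.60 in EpiSCm (log2 -1.07, SE 0.16, adjusted p = 1.1e-05), and its recruiter Uhrf1 at 12.93 and 13.02 in ESCm and 11.50 and 11.85 in EpiSCm (log2 -1.30, SE 0.15, adjusted p = 5.6e-07). The fall of Dnmt1 was array-separated and the female pair differed by 0.35. Uhrf2, a relative of Uhrf1, rose (log2 1.43), as did Tdg, the glycosylase that excises oxidised methylcytosine (log2 1.64), and the cytidine deaminase gene Apobec1 (log2 2.58, undetected in ESCm and so at least 4.25-fold higher). Dnmt3a had no probe that passed the detection filter.

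Germ-line genes, many of which are silenced by promoter methylation in somatic and postimplantation cells, were mostly lower. Of 13 tested, 1 rose and 11 fell (median log2 -1.96), none of the falls array-separated; 15 of the 28 listed genes on the array had no probe that passed the filter. Rbmxl2, a germ-cell RNA-binding protein, was at 11.10 and 11.14 in ESCm and 4.88 and 4.48 in EpiSCm and at least 56.8-fold lower (log2 -6.44, SE 0.13, adjusted p = 4.2e-17, undetected in EpiSCm). Dppa3 (Stella), a maternal protein that protects the early embryo's methylation, was at 10.06 and 9.90 in ESCm and 5.65 and 6.28 in EpiSCm (log2 -4.02, SE 0.21, adjusted p = 1.1e-11). Tex19.1, which restrains transposons in germ cells, was 15.3-fold lower (log2 -3.93). Piwil2, a Piwi protein of the piRNA pathway, fell (log2 -2.85, undetected in EpiSCm and so at least 4.70-fold lower). Stk31, a testis kinase, was at 6.52 and 6.62 in ESCm and 4.38 and 4.42 in EpiSCm (log2 -2.17, undetected in EpiSCm and so at least 2.42-fold lower). Tdrkh, a tudor-domain partner of Piwi proteins, was the 1 gene that rose (log2 1.67, detected on 1 of 2 ESCm arrays), and is named because its values were seen.

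Promoters of germ-line genes are shown because the E-box letters CACGTG, a core to which E2F6-associated and Max-containing repressors can bind, were frequent among them. They occurred in 17 of 31 windows (54.8%) found for 25 of the 30 listed germ-line genes, called or not, and in 7.15% of all 32851 windows. Among the germ-line genes that fell, 6 of 10 windows (60%) held them, in Rbmxl2, Stag3, Ddx4, Taf7l and 2 overlapping windows of Stk31. The list was chosen with its germ-line role known, and the letters are a palindrome, so both strands read alike. The windows of Rbmxl2 (chr7:107209195-107209494) and Stk31 (chr6:49395289-49395588), both on the plus strand of GRCm38.p6 in RefSeq, have the E-box in capitals.
Rbmxl2: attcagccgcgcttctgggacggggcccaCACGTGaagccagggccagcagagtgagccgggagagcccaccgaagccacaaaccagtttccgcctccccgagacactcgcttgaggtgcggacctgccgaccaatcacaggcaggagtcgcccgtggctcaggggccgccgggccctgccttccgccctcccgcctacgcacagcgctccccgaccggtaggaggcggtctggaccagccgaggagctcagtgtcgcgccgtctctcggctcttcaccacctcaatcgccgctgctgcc
Stk31: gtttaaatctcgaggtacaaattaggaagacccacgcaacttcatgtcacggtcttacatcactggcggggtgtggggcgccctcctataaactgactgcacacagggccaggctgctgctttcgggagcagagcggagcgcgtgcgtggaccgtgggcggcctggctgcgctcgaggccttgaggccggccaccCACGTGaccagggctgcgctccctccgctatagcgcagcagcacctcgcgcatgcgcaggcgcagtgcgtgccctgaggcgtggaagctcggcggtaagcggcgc
The E-box ended 215 bases before the annotated start in Rbmxl2 and 49 bases before it in Stk31. It was also present in the naive genes Klf4 and Gbx2. Neither an Esrrb-type site (TCAAGGTCA) nor a STAT-type site (TTCCNGGAA) was found in the windows of naive and LIF-STAT3 genes that fell or of primed genes that rose; they occur in 0.423% and 1.15% of all windows.

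Markers of other cell types were used to check what the cultures could hold. Trophoblast-list genes were lower, with 13 of 15 falling and none rising (median log2 -1.25). Rhox5, an X-linked homeobox gene of placenta and testis, was at 11.99 and 11.78 in ESCm and 5.21 and 5.72 in EpiSCm (log2 -6.42, SE 0.18, adjusted p = 1.7e-15), and Tfap2c, an AP-2 factor shared by trophoblast and germ cells, at 11.52 and 11.46 in ESCm and 8.19 and 8.12 in EpiSCm (log2 -3.33). Cdx2, the defining trophoblast factor, was lower too (log2 -1.62, undetected in EpiSCm and so at least 1.71-fold lower). Zscan4c, a gene of the 2-cell-like state, was at least 7.84-fold lower in EpiSCm.

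Fibroblast and feeder genes were lower as well, with 11 of 18 falling and none rising (median log2 -0.60). Col3a1, a fibrillar collagen, was at 6.34 and 6.51 in ESCm and 4.75 and 4.58 in EpiSCm (log2 -1.76, undetected in EpiSCm and so at least 2.19-fold lower), and Cav1, a caveolin, at 7.51 and 7.56 in ESCm and 5.02 and 4.50 in EpiSCm (log2 -2.78, undetected in EpiSCm and so at least 4.73-fold lower). Vim, the mesenchymal filament vimentin, was not called (log2 -0.03), though it was under median scaling (log2 -0.51, adjusted p = 0.017). In bulk RNA, fewer cells of a type and less RNA per cell cannot be told apart. How much feeder RNA contributed to either group was not tested.

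Extraembryonic-endoderm genes divided into 5 rises and 5 falls among 14 tested. The basement-membrane collagen genes Col4a1, at 7.18 and 6.96 in ESCm and 9.50 and 9.05 in EpiSCm (log2 2.21, SE 0.21, adjusted p = 3.5e-08), and Col4a2 (log2 1.37) rose, with the matrix protein gene Sparc (log2 1.39). The laminin chains Lamb1 (log2 -2.92, undetected in EpiSCm and so at least 5.11-fold lower) and Lama1 (log2 -1.92) fell. In the female pair both collagens differed the other way, by -1.33 and -1.87. Of the 9 neural genes tested, Nes, a filament of neural progenitors (log2 2.50), and Slitrk5, a neuronal membrane protein (log2 2.93), rose and Map2 fell (log2 -1.39).

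Of 17 tested genes of epithelial junctions and keratins, 7 rose and 4 fell (median log2 0.11, and -0.31 under median scaling), and 2 of the falls were array-separated. Krt8 and Krt18 encode the paired filaments of simple epithelia. Krt8 was at 7.75 and 7.73 in ESCm and 9.90 and 9.72 in EpiSCm (log2 2.07, SE 0.14, adjusted p = 1.8e-10), Krt18 at 6.43 and 6.02 in ESCm and 7.89 and 7.91 in EpiSCm (log2 1.68) and Krt19 at 4.52 and 4.40 in ESCm and 7.21 and 7.72 in EpiSCm (log2 3.0, undetected in ESCm and so at least 4.15-fold higher). The female pair differed by -1.35, -0.52 and -0.10 for these genes, and the male effect minus the female effect for Krt8 was 3.42 (SE 0.19, adjusted p = 2.4e-10). Cldn6, a tight-junction claudin of the epiblast, rose (log2 2.48).

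Cdh1, E-cadherin, was at 11.37 and 11.36 in ESCm and 9.19 and 9.54 in EpiSCm (log2 -2.0, SE 0.16, adjusted p = 4.1e-09). It read 8.95 to 9.60 on the 6 other GOF18 arrays and 10.47 to 11.53 on the 16 arrays of all other lines. Tjp1, the junction scaffold ZO-1, was at 9.05 and 9.23 in ESCm and 5.95 and 5.83 in EpiSCm (log2 -3.25). The falls of Cdh1 and Tjp1 are those 2 separated ones. Cdh2, N-cadherin, had no probe that passed the detection filter.

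**Figure D3:**
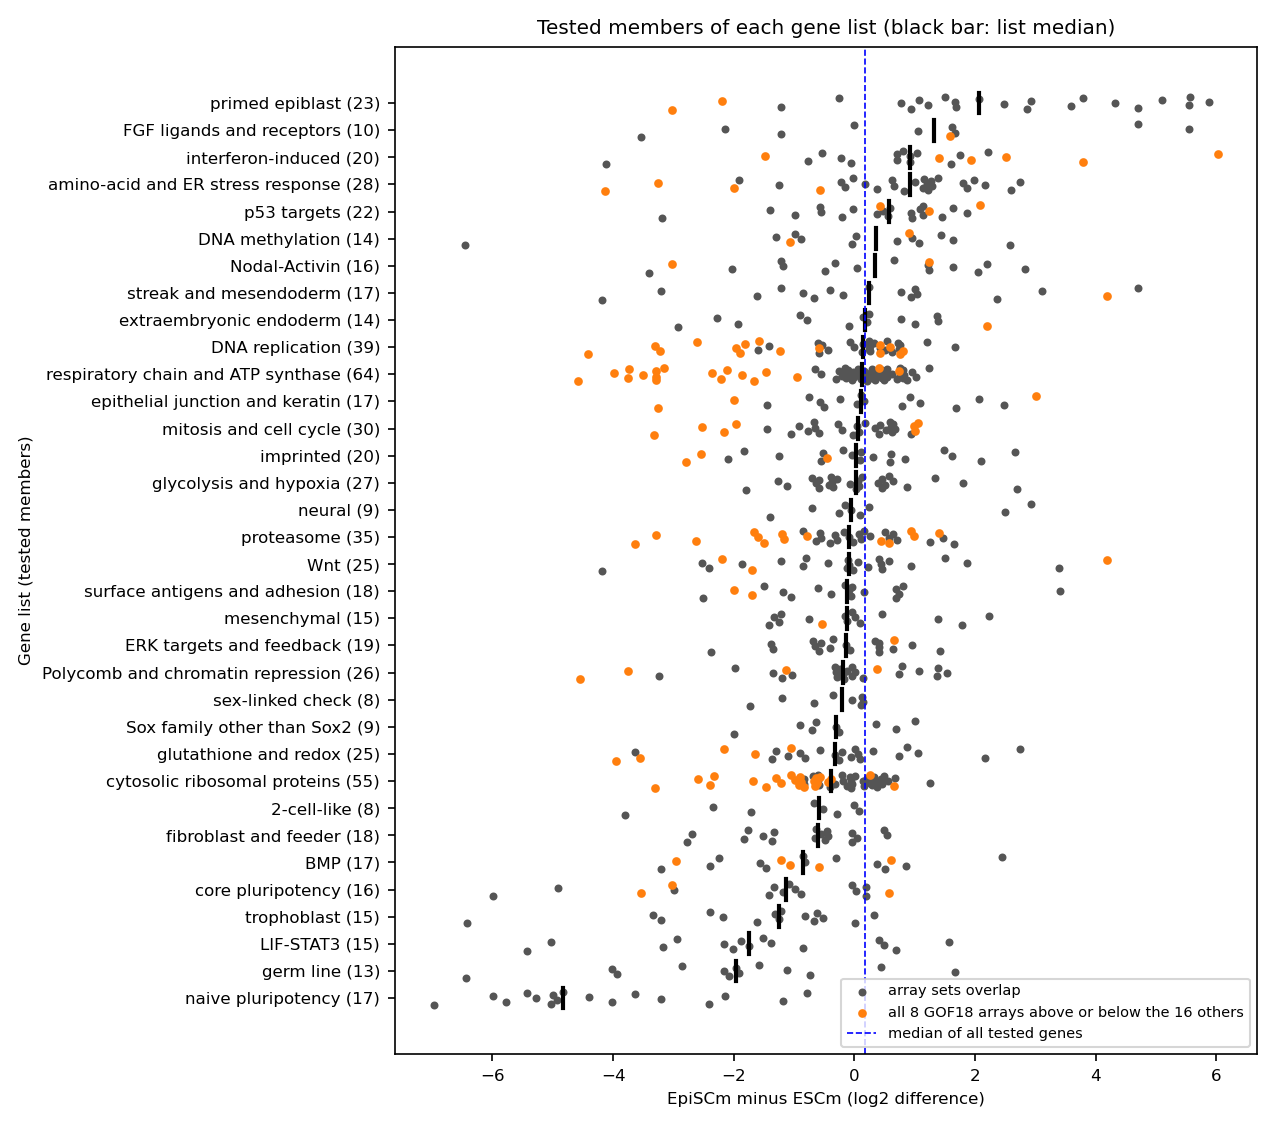
Difference between EpiSCm and ESCm (log2) for each tested member of 34 gene lists, 1 point per gene and 1 row per list, with the number tested in brackets. Black bars are list medians, the dashed line is the median of all genes (0.18), and orange points are array-separated genes. The naive list lies furthest left (median -4.84). It has no orange point, but genes that are also low in EpiSCf, in the other array set, can hardly be orange. The low points of the respiratory, ribosomal and replication lists are mostly orange.

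The interferon-induced genes that could be tested were mostly higher in EpiSCm. Of 20 tested, 13 rose and 4 fell (median log2 0.93), and 5 of the rises were array-separated. A further 13 of the 33 listed genes on the array had no probe that passed the filter, among them Ifit1, Mx1, Oas1a and Irf7. Gbp2, an interferon-induced GTPase, was undetected in ESCm and bright in EpiSCm, at 4.60 and 4.66 in ESCm and 10.64 and 10.67 in EpiSCm, which is at least 38-fold higher (log2 6.03, SE 0.14, adjusted p = 2.3e-16, undetected in ESCm). It read 8.88 to 11.14 on the other GOF18 arrays and 4.48 to 8.77 on the 16 others. Gbp2b (log2 3.79, undetected in ESCm and so at least 7.70-fold higher), Gbp3 (log2 2.22, undetected in ESCm and so at least 3.2-fold higher) and Igtp (log2 2.51, undetected in ESCm and so at least 3.14-fold higher), GTPases of the same response, also rose. H2-K1, a classical class I histocompatibility gene, was at 4.67 and 5.42 in ESCm and 6.95 and 7.0 in EpiSCm (log2 1.93, undetected in ESCm and so at least 2.95-fold higher). Ifitm1, a membrane protein of germ and ES cells as well as the interferon response, fell from 9.52 and 9.40 to 5.39 and 5.31 (log2 -4.11, detected on 1 of 2 EpiSCm arrays). In the female pair Gbp2 differed by 0.02 and H2-K1 by -0.65.

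Genes of the amino-acid and ER stress responses moved both ways, with more rises. Of 28 tested, 14 rose and 6 fell (median log2 0.92). Slc7a11, the cystine transporter, was at 4.46 and 4.42 in ESCm and 7.32 and 7.06 in EpiSCm (log2 2.75, undetected in ESCm and so at least 3.43-fold higher), and Chac1, which degrades glutathione, rose (log2 2.17). Hspa5, the ER chaperone BiP, was at 9.39 and 9.30 in ESCm and 5.5 and 4.91 in EpiSCm (log2 -4.14, detected on 1 of 2 EpiSCm arrays), and Slc3a2, the partner chain of Slc7a11, at 8.21 and 8.30 in ESCm and 4.94 and 5.05 in EpiSCm (log2 -3.26, undetected in EpiSCm and so at least 7.80-fold lower); both falls were array-separated. Among 22 p53 targets, 11 rose and 4 fell (median log2 0.57). Phlda3, an inhibitor of Akt, rose (log2 2.08), Ddit4, an inhibitor of mTOR, rose (log2 1.87), and Tigar, a regulator of glycolysis, fell (log2 -3.19, undetected in EpiSCm and so at least 5.60-fold lower).

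In the respiratory, ribosomal, proteasome and DNA replication lists more than 50% of the falls were array-separated. Of 64 respiratory-chain and ATP synthase genes, 4 rose and 18 fell, and 16 of those falls were separated. On quantile-normalised values alone 26 were called higher and 18 lower. The list median was 0.13, and -0.33 under median scaling. Sdhd, an anchor subunit of succinate dehydrogenase, was at 10.03 and 9.86 in ESCm and 5.85 and 6.08 in EpiSCm (log2 -3.98). Its 8 GOF18 values spanned 5.40 to 6.12 and the 16 others 9.33 to 10.22. Atp5a1, the α-subunit of ATP synthase, fell (log2 -4.58).

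Cytosolic ribosomal proteins showed 28 falls among 55, 21 of them separated, with 3 rises (median log2 -0.39). On quantile-normalised values alone 12 were called higher and 28 lower. The largest fall was that of Rps3a1 (log2 -3.31). Of 35 proteasome genes, 14 fell, 9 of them separated, and 7 rose, 3 of them separated. On quantile-normalised values alone 12 were called higher and 14 lower. Of 39 DNA replication genes, 16 fell, 10 of them separated, and 2 rose, against 14 called higher and 16 lower on quantile-normalised values alone. Pcna, the sliding clamp, was at 10.49 and 10.59 in ESCm and 6.20 and 6.05 in EpiSCm (log2 -4.42), with 4.88 to 6.45 on the GOF18 arrays and 8.66 to 10.69 on the others. The median of the replication list was 0.14, and -0.32 under median scaling. Of 30 mitosis and cell-cycle genes 4 rose and 11 fell, with 3 rises and 4 falls separated. Of 27 glycolysis and hypoxia genes 3 rose and 8 fell, none separated. On quantile-normalised values alone 11 mitosis genes were called higher and 11 lower, and 10 glycolysis genes higher and 8 lower. Among all genes 24.2% rose and 27.5% fell.

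Of 26 tested Polycomb and chromatin genes, 4 rose and 9 fell, with 3 of the falls array-separated (median log2 -0.18). E2f6, a repressor of germ-line genes, rose (log2 1.54), as did Mta1, a subunit of a deacetylase complex (log2 1.38). Eed, the histone-binding subunit of Polycomb complex 2, was at 12.40 and 12.31 in ESCm and 7.74 and 7.87 in EpiSCm (log2 -4.55), and Rnf2, the ubiquitin ligase of Polycomb complex 1, at 8.52 and 8.53 in ESCm and 4.78 and 4.77 in EpiSCm (log2 -3.75, undetected in EpiSCm and so at least 9.39-fold lower). Both were array-separated. Jarid2, which guides complex 2, was at 7.74 and 7.71 in ESCm and 4.50 and 4.48 in EpiSCm (log2 -3.24, undetected in EpiSCm and so at least 5.41-fold lower) and was not separated, and the female pair differed by -2.82. Of 25 tested redox genes, 4 rose and 12 fell, 5 of the falls separated, with Txn1, thioredoxin (log2 -3.94), array-separated and Gsta3, a glutathione transferase (log2 -3.63, undetected in EpiSCm and so at least 9.65-fold lower), not.

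The separated genes with the widest gaps between array sets show how the sets stand apart. Vapa, a membrane tether of the ER, read 6.94 to 7.60 on the 8 GOF18 arrays and 11.01 to 11.69 on the 16 others. Stmn1, a tubulin-binding protein, read 5.49 to 6.56 and 9.95 to 12.33. Ddx3x, an X-linked RNA helicase, read 7.07 to 7.60 and 10.78 to 12.13. In the other direction, Igfbp3, a binder of insulin-like growth factors, read 10.15 to 10.54 on the GOF18 arrays and 6.10 to 8.20 elsewhere. Epha1, an ephrin receptor, read 9.72 to 10.87 and 4.49 to 8.01. The GOF18 set spans EpiSC and ESC media, and the other set holds ES, EpiSC and embryonal carcinoma lines.

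Other large changes were found among genes of varied function. Cd59a, an inhibitor of complement, stood at 6.37 and 6.17 in ESCm and 11.19 and 11.11 in EpiSCm (log2 4.88, SE 0.15, adjusted p = 8.5e-15). Glrx, a glutaredoxin, was at 6.33 and 6.28 in ESCm and 11.54 and 10.92 in EpiSCm and 30.3-fold higher, and was array-separated. Slc39a8, a zinc and manganese importer, rose (log2 4.35, undetected in ESCm and so at least 11.1-fold higher), as did Vrtn, which controls vertebral number in pigs (log2 4.35, undetected in ESCm and so at least 13.0-fold higher), Cmtm8 (log2 3.94, undetected in ESCm and so at least 9.46-fold higher) and Vstm2l (log2 3.84, undetected in ESCm and so at least 9.25-fold higher). Among the falls, Ooep, an oocyte and embryo RNA-binding protein on the naive list, was at 13.04 and 12.97 in ESCm and 6.06 and 6.01 in EpiSCm (log2 -6.97, SE 0.12, adjusted p = 3.4e-18). Laptm5, a lysosomal membrane protein of blood cells, was at 11.56 and 11.47 in ESCm and 5.98 and 6.35 in EpiSCm (log2 -5.35). Mylpf, a muscle myosin light chain, was at 11.92 and 11.87 in ESCm and 6.49 and 6.70 in EpiSCm (log2 -5.30). The chaperone Hsp90aa1 (log2 -5.42) and the ubiquitin-ligase adaptor Cacybp (log2 -5.62) fell and were array-separated.

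Imprinted genes, which are read from 1 parental copy, moved both ways. Of 20 tested, 5 rose and 8 fell (median log2 0.03). Grb10, an adaptor that restrains growth, was at 10.01 and 9.87 in ESCm and 12.62 and 12.59 in EpiSCm (log2 2.67), and Nnat, neuronatin, rose (log2 2.09). Igf2 fell (log2 -2.09), and Mest fell (log2 -2.54) with array separation. Grb10, Nnat and Igf2 differed in the same direction in the female pair, by 3.76, 3.70 and -3.02.

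Sex-linked genes were set against the male labels. Of 8 tested members of that list, 0 rose and 3 fell, and 60% of the 5 tested Y-linked genes were called lower in EpiSCm. Eif2s3y, a Y-linked translation factor, was detected in both groups, at 9.65 and 9.57 in ESCm and 7.82 and 7.94 in EpiSCm (log2 -1.73, SE 0.13, adjusted p = 1.8e-09). Xist, the RNA of the inactive X chromosome, was not well above background on any of the 4 arrays.

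The female pair offers a comparison with no shared array. Of 1714 genes that rose at least 2-fold in EpiSCm, 1189 (69.4%) were also called higher in EpiSCf than in ESCf, where 33% of all genes were; they are 40.4% of the 2945 female calls. Of 1483 that fell at least 2-fold, 915 (61.7%) were also called lower in the female pair, where 27.4% of all genes were; they are 37.4% of the 2445 female calls. The difference between the male and female effects was itself called for 50.9% of genes (4547), and in the same direction under the 3 scalings for 10.4% of genes (931) with a higher male value and 21.5% (1918) with a higher female value. EpiSCm and EpiSCf differ in sex, reporter line and array set at once, which cannot be told apart.

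Gbx2, a homeobox target of STAT3, differed most among pluripotency genes. It was at 11.02 and 10.98 in ESCm and 6.27 and 5.65 in EpiSCm (log2 -5.04, SE 0.20, adjusted p = 2.7e-13), but at 9.53 and 9.82 in ESCf and 11.30 and 10.92 in EpiSCf. The difference of effects was -6.47 (SE 0.28, adjusted p = 1.5e-11). On the 6 GOF18 arrays with added Sox2 it read 8.07 to 9.19, so it was not separated by array set. Npy, neuropeptide Y, was not well above background on any of the 4 male arrays (-0.15) and was higher by 7.34 in the female pair, a difference of -7.50 (SE 0.19, adjusted p = 3.9e-15). Sfrp2 differed by -4.62 (SE 0.35, adjusted p = 6.9e-09) and the separated gene Vapa by -4.58 (SE 0.20, adjusted p = 1.5e-11). Fastkd3, a mitochondrial RNA-processing factor, differed by -5.24 (SE 0.32, adjusted p = 5.9e-10), and the nuclear-pore protein Pom121 by -4.42 (SE 0.26, adjusted p = 3.4e-10); both are array-separated.

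In the other direction, Gbp2 had a higher male effect by 6.01 (SE 0.20, adjusted p = 1.6e-13). Xlr4a, an X-linked lymphocyte-regulated gene, fell far less in the male pair (-0.73) than in the female pair (-7.29), a difference of 6.56 (SE 0.19, adjusted p = 2.5e-14). Fmr1nb, an X-linked cancer-testis gene, showed the same order, at -1.67 against -6.33 (4.66, SE 0.24, adjusted p = 1.3e-10). The median of the 311 tested X-linked genes was 0.05 in the male pair and -0.37 in the female pair. Hebp1, a heme-binding protein, rose by 1.77 in the male pair and differed by -2.79 in the female pair, a difference of 4.56 (SE 0.27, adjusted p = 3.7e-10). Klf4 differed by -5.42 in the male and -5.66 in the female pair, and Fgf5 by 5.55 and 5.48; neither difference of effects was called, at 0.23 (SE 0.27, adjusted p = 0.49) and 0.07 (SE 0.27, adjusted p = 0.85), but that of Klf4 was called under cyclic loess (0.79, adjusted p = 0.029).

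**Figure D4:**
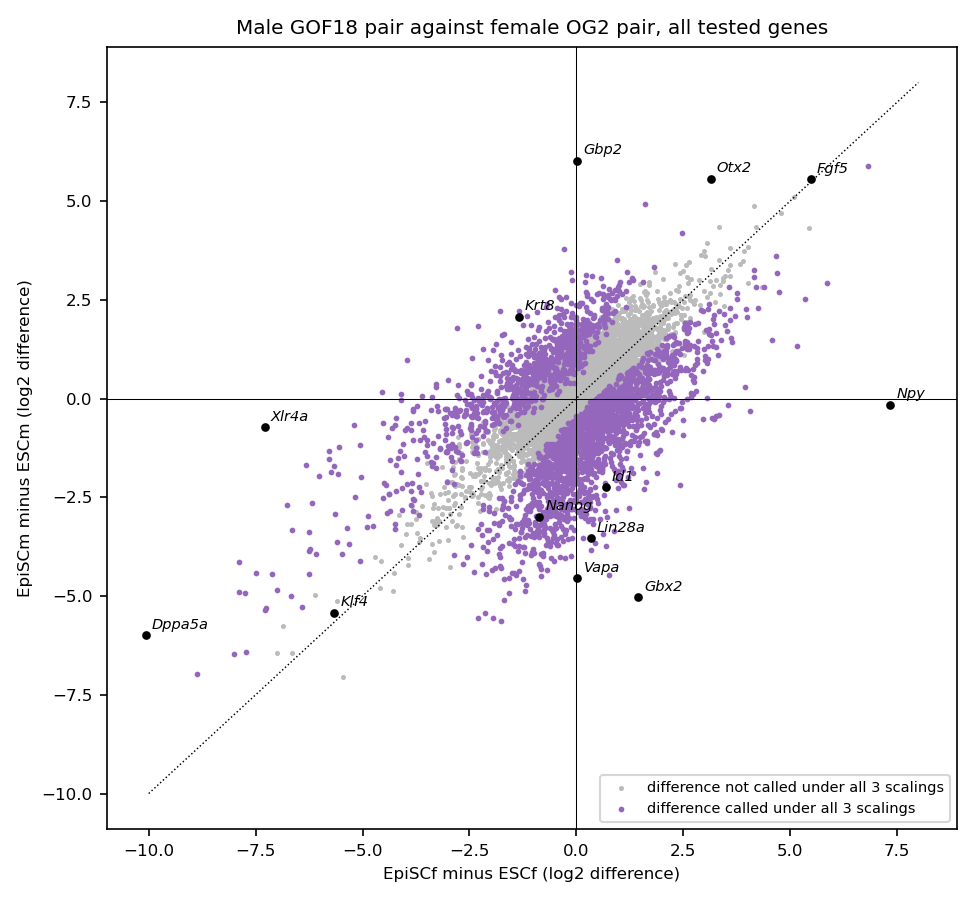
Log2 difference of EpiSCm from ESCm (vertical) against that of EpiSCf from ESCf (horizontal) for all 8932 tested genes. Purple genes have a difference of effects called under the 3 scalings, the dotted line marks equal effects, and named genes are black. Klf4 and Fgf5 lie near the line, Gbp2 and Krt8 above it, and Gbx2, Npy, Lin28a and Vapa below it.

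Among the autosomes and X, genes on chromosome 11 stood higher and genes on chromosome 13 lower than the rest. These medians are a description with no test. The median difference of the 788 tested genes of chromosome 11 was 0.44, which is 0.26 above all genes, and 51.8% were called higher against 41.3% of all genes. For the 318 genes of chromosome 13 the median was -0.09, or -0.27 relative to all genes. Under the 6 other scalings tried the relative shifts were 0.14 to 0.31 and -0.35 to -0.14. Most other chromosomes also kept 1 sign there, so the sign sets neither apart. A shift common to a whole array largely cancels in these relative values, so the scalings are not separate checks. In the female pair the medians were 0.06 and -0.04, while chromosome 10 stood highest there at 0.47 and chromosome X lowest at -0.37. Set against the mean of the 12 groups, chromosome 11 read 0.15 and 0.16 on the EpiSCm arrays, -0.05 and -0.04 on the ESCm arrays, 0.13 and 0.14 on the EpiSox2mL2 arrays and -1.7e-04 to 0.03 on the 4 GOF18 arrays in ESC medium. For chromosome 13 the EpiSCm arrays read -0.12 and -0.11 and both ESCm arrays 0.11, within the -0.29 to 0.19 of the other lines. Chromosome Y stood lowest in the male pair, with a median of -1.21 over only 5 tested genes, or -1.39 relative to all genes. Of those 5 genes 60% were called lower and 0% higher. The relative shift of chromosome Y was -2.05 to -0.50 under the 6 other scalings. No karyotype was measured, and the cause of these shifts was not tested.

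**Figure D5:**
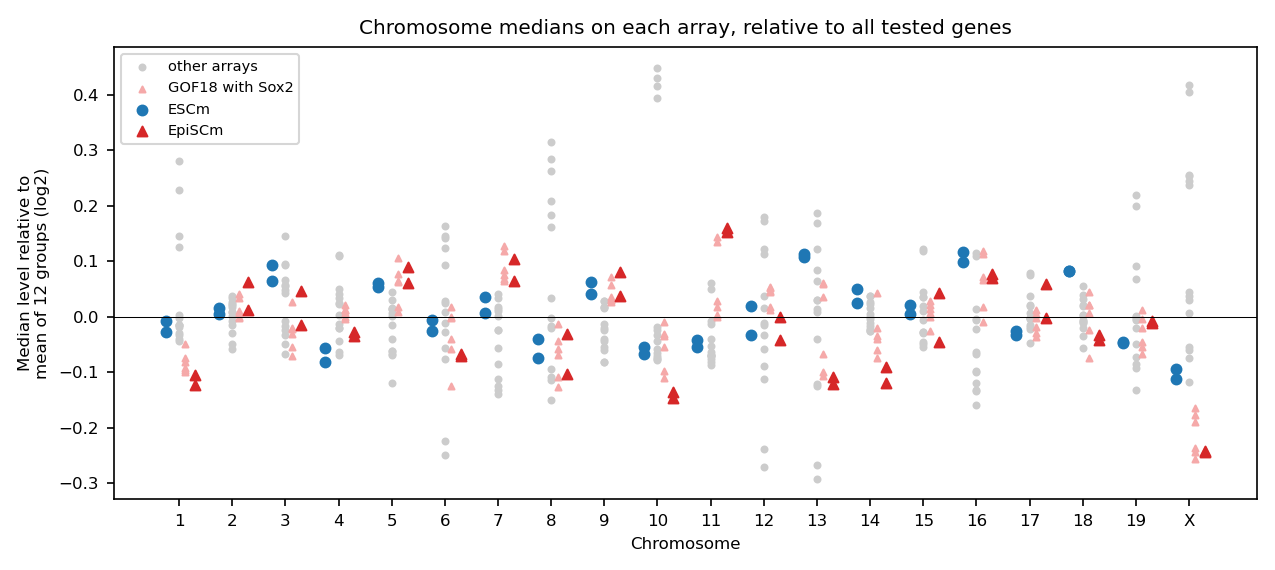
Median level of each chromosome's tested genes on each array, relative to the mean of the 12 groups and to all tested genes of the array (log2). Chromosome Y is not shown. Large circles are ESCm, large triangles EpiSCm, small triangles the other GOF18 arrays and small grey circles all other arrays. EpiSCm lies highest of all arrays on chromosome 11 (0.15 and 0.16).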

How the data were processed

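Labelled RNA (300 ng per reaction, 18 h hybridisation, per the labels) was read on Illumina BeadChips. The authors deposited, per the file headers, an intensity and a detection p-value for each of 25697 probes per array, not normalised, and separately processed log2 values with a median of 3.68 in each column, whose making is not given in the sources used here. BeadStudio 3.2, lumi and RMA are listed in the submitters' processing notes.

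Background was removed with limma 3.58.1 (R 4.3.3, normexp from detection p-values, offset 16), followed by quantile normalisation over 24 arrays and log2. A probe stayed in when 1 or more groups had detection p under 0.01 on each of their 2 arrays, and the kept probe with the highest mean stood for each of 8932 genes. Limma fitted 12 group means (12 residual and 6.13 prior degrees of freedom) with Benjamini-Hochberg adjustment. A fold is a lower bound, written as "at least", for a gene undetected on both arrays of the lower group: the brighter mean over the arrays' detection limit. The number of arrays limits the precision.

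The deposited log2 values correlated at 0.991 with those used and, like them, follow the ranks within each array, so they are no independent check of order. Probe names came from the platform annotation, updated by Entrez ID to a RefSeq annotation of GRCm38.p6 (23962 of 23978 named probes matched; 1719 had no name). The members, the 34 gene lists and the alternatives were chosen with earlier results of these data known. The genes named were drawn from 48 chosen genes, up to 6 per list, the 15 largest rises and falls, and 6 genes with opposed probes. The 6 largest in each direction for differences of effects and for gaps between array sets were drawn on too. Not every gene given by these rules is described, and Ddx3y, Tardbp and Ttc3 are among those left out. The replicate numbers did not pair samples: deviations from the group means correlated at 0.01 between ESCm and EpiSCm.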

Additional observations from a re-analysis of the deposited data

Results flagged for a closer look

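The male and female EpiSC effects differed by a direct test of the difference. Limma's test called 2480 genes with a higher difference in the male pair and 2067 with a higher difference in the female pair (1048 and 3704 under median scaling).

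Among the genes described above, the male effect exceeded the female effect by log2 6.56 for Xlr4a, 6.01 for Gbp2, 4.66 for Fmr1nb, 4.56 for Hebp1 and 3.42 for Krt8. It was below the female effect for Npy (-7.50), Gbx2 (-6.47), Fastkd3 (-5.24), Sfrp2 (-4.62), Vapa (-4.58), Pom121 (-4.42), Lin28a (-3.87), Egr1 (-3.26), Tdgf1 (-2.97), Id1 (-2.94), Id3 (-2.47) and Dusp6 (-2.35). Of these, Gbp2, Fastkd3, Sfrp2, Vapa, Pom121, Lin28a and Tdgf1 were also separated between the GOF18 arrays and all others.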

How the results depend on the processing

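The calls, the named genes and the differences of effects were recomputed under 17 alternatives, 1 of them (median scaling on probes detected on every array) added after seeing the data; list and chromosome medians under the 6 other scalings, array separation under 2, and promoter and probe-disagreement counts under none. Of 155 genes followed between EpiSCm and ESCm, 143 kept their direction and side of the threshold under all that could be run. Median scaling moved the split by direction: 2195 genes were called up, 1048 and 3704 had a higher and a lower male effect, and 77 and 1335 genes had all GOF18 arrays above and below the others. Calls ranged from 4509 (probes detected on all 4 arrays) to 6502 (no filter), and the first of these filters left 3490 for the difference of effects. Leaving out each array in turn gave 5547 to 5790 calls, 3245 to 3391 up and 2302 to 2399 down, and 4022 to 4413 for the difference of effects. With the replicate number as a block, 6213 genes were called, 3670 up, and 4493 for the difference; this block changed 1 call among the genes named, that of Lifr (adjusted p = 0.037). Averaging the probes of a gene reversed Adi1 (-0.27), Ndufa5 (-1.79), Ube2n (-0.49) and Pou5f1 (0.51), whose probes disagree. Npy, undetected in both male groups, reversed to 0.50 under median scaling on probes detected on every array. The groups are 2 arrays each on 1 platform, and EpiSCm and ESCm never share an array set, so no alternative separates the line from the array set.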
